A study of Bos taurus with 30 samples.

Results

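The growth hormone receptor and insulin-like growth factor (IGF) axis was examined as 4 genes of visceral adipose tissue, of the 24596 genes listed in the deposited table. The genes were chosen by identifier: GHR (ENSBTAG00000001335), IGF1 (ENSBTAG00000011082), IGF2 (ENSBTAG00000013066) and IGF1R (ENSBTAG00000021527). The table lists Ensembl identifiers alone, and these 4 names were paired with them outside the table. A gene was used only where its value was above 1 in at least 15 libraries, and all 4 genes met this, as did 12738 genes in all.

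Samples came from Angus × Holstein-Friesian heifer calves of 21 weeks of age on 2 planes of nutrition, High (HI, n = 15) and Moderate (MOD, n = 15), with 1 RNA-seq library per calf. HI calves were offered 1.5 kg of milk replacer (10 litres) a day with concentrate to appetite, for a target growth of 1.2 kg a day. MOD calves were given 4 litres of milk replacer a day, holding 0.5 kg, and a restricted 1 kg of concentrate, for a target of 0.5 kg a day. Per the labels the diets began at 2 weeks of age, with a calf phase of 8 weeks and a post-weaning phase of 11 weeks, when both groups had hay to appetite. The study's methods give a slightly later start, a stepwise reduction of milk towards weaning, and a MOD concentrate allowance that was stepped up to its maximum by weaning. The tissue was omental fat, which is a mixture of adipocytes, stromal, vascular and immune cells. In such bulk samples, fewer cells of a type and less RNA per cell cannot be told apart. Marker genes of adipocytes and of other cell types were not analysed here, because no table used here pairs their identifiers with names.

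GHR is the cell surface receptor through which pituitary growth hormone acts, by way of the kinase JAK2 and the transcription factor STAT5. In adipose tissue growth hormone favours the breakdown of stored fat, and in liver and many other tissues it raises transcription of IGF1. IGF1 and the related, parentally imprinted ligand IGF2 both signal through IGF1R, a receptor tyrosine kinase close to the insulin receptor, whose signal promotes growth and the differentiation of fat cell precursors.

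The libraries held 11847883 to 19383275 gene reads each. HI calf 2120, MOD calf 975 and MOD calf 911 stood apart from the other 27 calves on the first principal component of the 12738 genes, which held 36.7% of the variance. Their scores were 167, 88.8 and 49.5, and the next calf scored 9.55. Results that rest on them are therefore given with and without these 3 calves. Values are given as TMM-normalized CPM, which are reads per 1000000 of the effective library size. They are not divided by transcript length, so levels are compared between calves and not between genes.

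IGF1, the ligand, was lower in HI calves, and it was the 1 gene of the 4 called between the diets by limma on the deposited TMM-scaled values of all 30 calves. IGF1 in HI calves ranged from 3.15 in calf 3148 to 15.7 in calf 2528, with a median of 7.41. IGF1 in MOD calves ranged from 4.18 in calf 911 to 18.4 in calf 1690, with a median of 11.97. The ranges overlapped, but 14 of the 15 HI calves lay below the MOD median and 14 of the 15 MOD calves lay above the HI median. The mean was 7.78 ± 2.84 for HI and 12.1 ± 3.43 for MOD calves (SD, n = 15 each). Expression was 1.53-fold higher in MOD calves, and the log2 fold change for HI over MOD was -0.61 ± 0.17 (standard error, with a 95% confidence interval of -0.96 to -0.26, limma adjusted p = 0.016). The thresholds were an adjusted p-value below 0.05 together with more than 1.5-fold change, and IGF1 passed both, as 2.36% of the genes tested did in this direction, against 6.74% with the adjusted p-value alone.

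The difference in IGF1 rested on few reads per calf. IGF1 had a median of 110 reads in HI and 214 reads in MOD calves, and its lowest count was 48 reads. Counting error at these medians was 9.53% and 6.84%, against a variation between calves of 36.5% and 28.4% of the mean. The fold change lay close to the threshold of 1.5. With calf 3148, 1531, 3622 or 1690 left out, it fell below 1.5 while the adjusted p-value stayed under 0.05. With each of the 30 calves left out in turn, the log2 fold change ranged from -0.71 to -0.53 and the adjusted p-value from 0.0021 to 0.029 (limma). Without calves 2120, 975 and 911 the log2 fold change was -0.68 ± 0.16 (standard error, limma adjusted p = 0.0027).

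**Figure D1:**
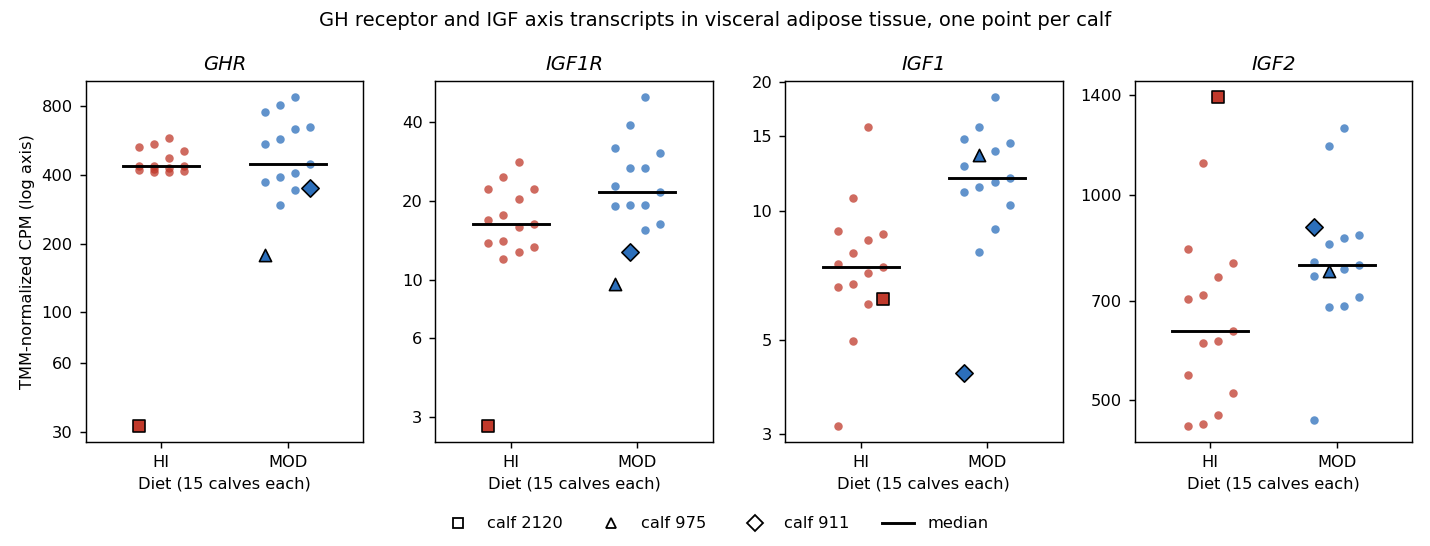
Each point is 1 calf, with diet on the x axis and TMM-normalized CPM on a log y axis, and the horizontal line is the median of the 15 calves of a diet. HI calf 2120 was the lowest of all calves for GHR (31.9) and IGF1R (2.77) and the highest for IGF2 (1389), while the IGF1 medians were 7.41 in HI and 11.97 in MOD calves.

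IGF2, the second ligand, did not pass the test. IGF2 in HI calves ranged from 459 in calf 1388 to 1389 in calf 2120, with a median of 633. IGF2 in MOD calves ranged from 468 in calf 991 to 1251 in calf 1395, with a median of 790. HI calf 2120 was above every MOD calf. Of the 15 HI calves 11 lay below the MOD median, and 14 of the 15 MOD calves lay above the HI median. The mean was 708 ± 256 for HI and 824 ± 191 for MOD calves (SD, n = 15 each). The log2 fold change was -0.26 ± 0.15 (standard error, with a 95% confidence interval of -0.55 to 0.04, limma adjusted p = 0.25). Without calf 2120 alone it was -0.33 ± 0.13 (standard error, with a 95% confidence interval of -0.60 to -0.07, limma adjusted p = 0.064). Without calves 2120, 975 and 911 it was -0.33 ± 0.14 (standard error, limma adjusted p = 0.087).

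IGF1R, the receptor of both ligands, was not called by limma on the TMM-scaled values of all 30 calves, and its adjusted p-value passed once the 3 calves that stood apart were left out. IGF1R in HI calves ranged from 2.77 in calf 2120 to 28.2 in calf 3620, with a median of 16.3. IGF1R in MOD calves ranged from 9.64 in calf 975 to 49.5 in calf 3622, with a median of 21.6. The 3 calves that stood apart were the lowest HI calf and the lowest and second lowest MOD calves, 975 (9.64) and 911 (12.7). At the other end, 4 MOD calves lay above all HI calves. The mean was 16.8 ± 6.15 for HI and 24.0 ± 10.5 for MOD calves (SD, n = 15 each). The log2 fold change was -0.51 ± 0.23 (standard error, with a 95% confidence interval of -0.99 to -0.03, limma adjusted p = 0.15). In the 27 other calves IGF1R was 1.41-fold higher in MOD calves, with a log2 fold change of -0.50 ± 0.16 (standard error, limma adjusted p = 0.027), where 10.6% of the genes tested had an adjusted p-value under 0.05 in this direction. Without calf 2120 alone it was -0.35 ± 0.18 (standard error, limma adjusted p = 0.17). A fit of all 30 calves with limma-voom gave less weight to libraries whose values lay farther from the fitted ones. In it the log2 fold change was -0.52 ± 0.16 (standard error, limma-voom adjusted p = 0.012), where 14.6% of the genes tested had an adjusted p-value under 0.05 in this direction. Neither fit reached a fold change of 1.5.

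GHR, the receptor of growth hormone, did not pass the test of a difference in level. GHR in HI calves ranged from 31.9 in calf 2120 to 578 in calf 1707, with a median of 436. GHR in MOD calves ranged from 178 in calf 975 to 873 in calf 3622, with a median of 446. The medians lay close together, and 24 of the 30 calves lay in the range shared by both diets. The mean was 433 ± 123 for HI and 509 ± 204 for MOD calves (SD, n = 15 each). The log2 fold change was -0.29 ± 0.29 (standard error, with a 95% confidence interval of -0.88 to 0.30, limma adjusted p = 0.57), and calf 2120 alone held most of it. Without calf 2120 it was -0.03 ± 0.17 (standard error, with a 95% confidence interval of -0.37 to 0.31, limma adjusted p = 0.91), and without calves 2120, 975 and 911 it was -0.17 ± 0.14 (standard error, limma adjusted p = 0.39).

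All 4 log2 fold changes were below 0, with a median of -0.40, beside a median of -0.02 and a share of 52.8% below 0 over the 12738 genes. The size of these differences depends on the scaling of the libraries. The TMM factor that sets the scale averaged 0.94 ± 0.10 for HI and 1.07 ± 0.10 for MOD calves (SD, n = 15 each). With library size alone in its place the median of all genes moved by -0.18 on the log2 scale and 74.0% of genes were below 0. The log2 fold changes were then -0.79 for IGF1 (adjusted p = 0.0025, limma), -0.45 for IGF2 (adjusted p = 0.032), -0.69 for IGF1R (adjusted p = 0.055) and -0.48 for GHR (adjusted p = 0.29). IGF2 had an adjusted p-value under 0.05 under this scaling, as 20.9% of all genes tested did in this direction, and that share was 23.7% without calf 2120 and 27.8% without calves 2120, 975 and 911 (5.34% with the 1.5-fold threshold as well). In the edgeR tests of the 27 calves, which used TMM scaling, IGF1R had an adjusted p-value under 0.05 and IGF2 did not. IGF2 had an adjusted p-value of 0.097 with the exact test and 0.088 with the quasi-likelihood test. The share of all genes that passed in this direction was 9.87% with the exact test and 12.5% with the quasi-likelihood test.

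**Figure D2:**
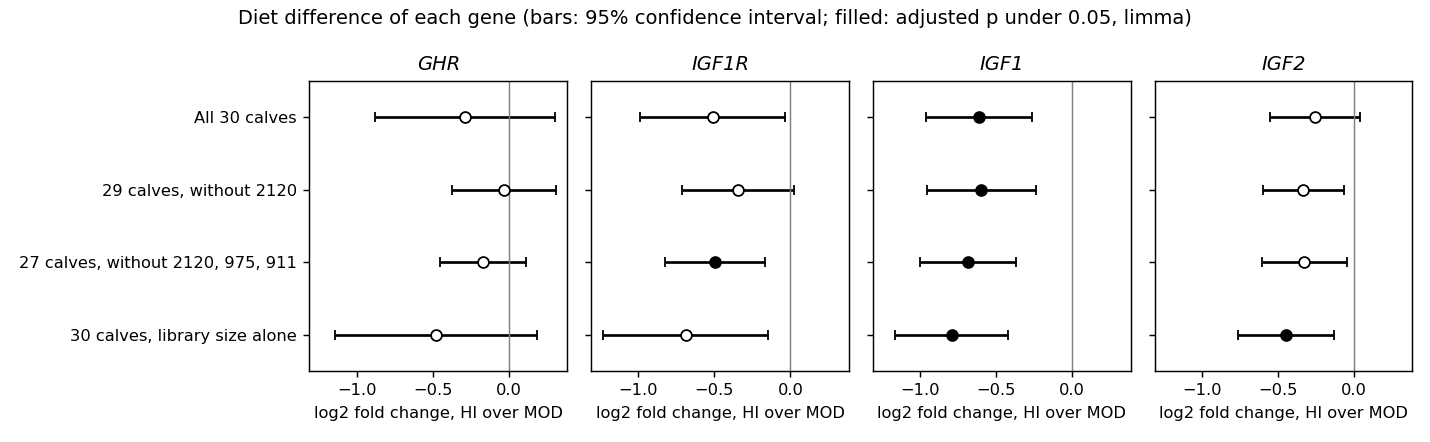
The x axis is the log2 fold change of HI over MOD calves from limma, with 95% confidence intervals as bars, and the rows are 4 choices of calves and scaling. Filled points have an adjusted p-value under 0.05: IGF1 in all 4 rows (-0.61, -0.60, -0.68 and -0.79), IGF1R in the row of 27 calves (-0.50), and IGF2 in the row of library size alone (-0.45).

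The calves that stood apart did not shift the 4 genes together. GHR in HI calf 2120, at 415 reads, was 13.7-fold under the median over the 14 remaining HI calves, and 2.39% of the genes tested were lowered as far or further. IGF1R in calf 2120 was 5.99-fold below that median, at 36 reads, as 12.1% of genes were or further. IGF2 in calf 2120 was 2.23-fold above it, and 17.4% of genes were raised as far or further. IGF1 in calf 2120, at 6.23, lay inside the range of the other HI calves. Both receptors were low in this library, while 1 ligand was high and the other was in range.

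MOD calf 975 showed the same order for the receptors. GHR in calf 975 was 3.08-fold and IGF1R 2.37-fold below the median of the other 13 MOD calves, both below every one of them, and 8.27% and 14.3% of genes were lowered as far or further in this library. IGF1 and IGF2 in calf 975 were 1.13 and 0.98 times their medians. In MOD calf 911 it was IGF1 that stood out, 2.86-fold below the median at 48 reads, and IGF1R, 1.80-fold below, where 4.45% and 13.2% of genes were lowered as far or further. GHR in calf 911 was 0.64 times the median and IGF2 was 1.14 times the median, both within the range of the other MOD calves. The part that cell composition or RNA quality had in these libraries was not tested. The paper states that only samples above a set RNA integrity number were sequenced, and the per-calf labels used here give no such value.

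The HI calves other than calf 2120 were close to one another in GHR. Their values spanned 411 to 578, a variation of 12.02% of the mean (n = 14), while the 13 MOD calves other than 975 and 911 spanned 295 to 873, a variation of 34.5%. On the log2 scale the SD of GHR was 0.17 in HI and 0.50 in MOD calves, a log2 variance ratio of -3.22. This comparison was chosen after the values were seen, so it is given as a description and no p-value is reported for it. The variance of most genes was also lower in these HI calves, with a median log2 ratio of -0.37 and 64.7% of genes below 0, and 0.573% of genes had a ratio as low as that of GHR. The log2 variance ratios of the other genes in these 27 calves were 1.28 for IGF1, 0.13 for IGF2 and -0.77 for IGF1R. With all 30 calves the ratio of GHR was 1.36, since calf 2120 then set the spread in HI calves.

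Levels of 2 genes were next compared across calves within each diet, over the 6 pairs of genes in 2 diets (12 correlations, on log2(value + 0.5)). GHR and IGF1R rose and fell together among MOD calves. In the 15 MOD calves Pearson's r was 0.83 (permutation p = 7.0e-05, adjusted p = 0.00084) and Spearman's rho was 0.78 (permutation p = 0.00094, adjusted p = 0.011). Without the 2 calves farthest from the GHR median, 975 and 3622, r was 0.69 (permutation p = 0.011, adjusted p = 0.074), and without calves 975 and 911 it was 0.74 (n = 13, permutation p = 0.0042, adjusted p = 0.025). With calves 1057 and 3622 left out as well, r was 0.74 (n = 11, permutation p = 0.011, adjusted p = 0.13). Scaled by library size alone and not by TMM, r without calves 975 and 3622 was 0.79 (n = 13, permutation p = 0.00155, adjusted p = 0.0087). MOD calf 3622 was the highest and calf 975 the lowest of the MOD calves for both receptors.

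In the 15 HI calves the same pair gave r = 0.89 (permutation p = 0.0037, adjusted p = 0.022), but rho = 0.48 (permutation p = 0.071, adjusted p = 0.17). Under the TMM scaling this correlation rested on calf 2120. Without it r was 0.45 and rho 0.36 (n = 14, permutation p = 0.11 and 0.20, adjusted p = 0.26 and 0.36), and without calves 2120 and 1707, the farthest from the GHR median, r was 0.54 (permutation p = 0.060, adjusted p = 0.24). With library size alone the call held without these calves, r being 0.69 (n = 13, permutation p = 0.0098, adjusted p = 0.029), and rho in all 15 HI calves was 0.63 (permutation p = 0.014, adjusted p = 0.041). Other pairs moved with the scaling too. Without calves 2120 and 1707, r of GHR and IGF2 rose from 0.089 to 0.48 (permutation test, adjusted p = 0.19). In the same calves r of GHR and IGF1 fell from 0.12 to 0.020. The part of the scaling in these correlations was not tested. The values of GHR in the HI calves that remain cover a narrow range, and the difference in correlation between the diets was not tested.

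GHR and IGF1, the receptor and a known target of its signal, gave r = 0.44 in the 15 MOD calves (permutation p = 0.10, adjusted p = 0.25) and rho = 0.61 (permutation p = 0.017, adjusted p = 0.10). Without calves 975 and 911 the same pair gave r = 0.73 (n = 13, permutation p = 0.0042, adjusted p = 0.025) and rho = 0.72 (permutation p = 0.0074, adjusted p = 0.047). When calves 1057 and 3622, the farthest of these from the GHR median, were left out as well, r was 0.58 (n = 11, permutation p = 0.062, adjusted p = 0.25). With library size alone, rho in the 15 MOD calves was 0.71 (permutation p = 0.0041, adjusted p = 0.024), r was 0.55 (permutation p = 0.029, adjusted p = 0.088), and r without calves 975 and 3622 was 0.73 (n = 13, permutation p = 0.0020, adjusted p = 0.0087). In HI calves r was 0.17 (n = 15, permutation p = 0.35, adjusted p = 0.53) and rho 0.37 (permutation p = 0.17, adjusted p = 0.35), and without calf 2120 r was 0.26 (permutation p = 0.37, adjusted p = 0.64). The 2 calves left out differ in kind, calf 975 having low GHR with IGF1 near the median and calf 911 having low IGF1.

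**Figure D3:**
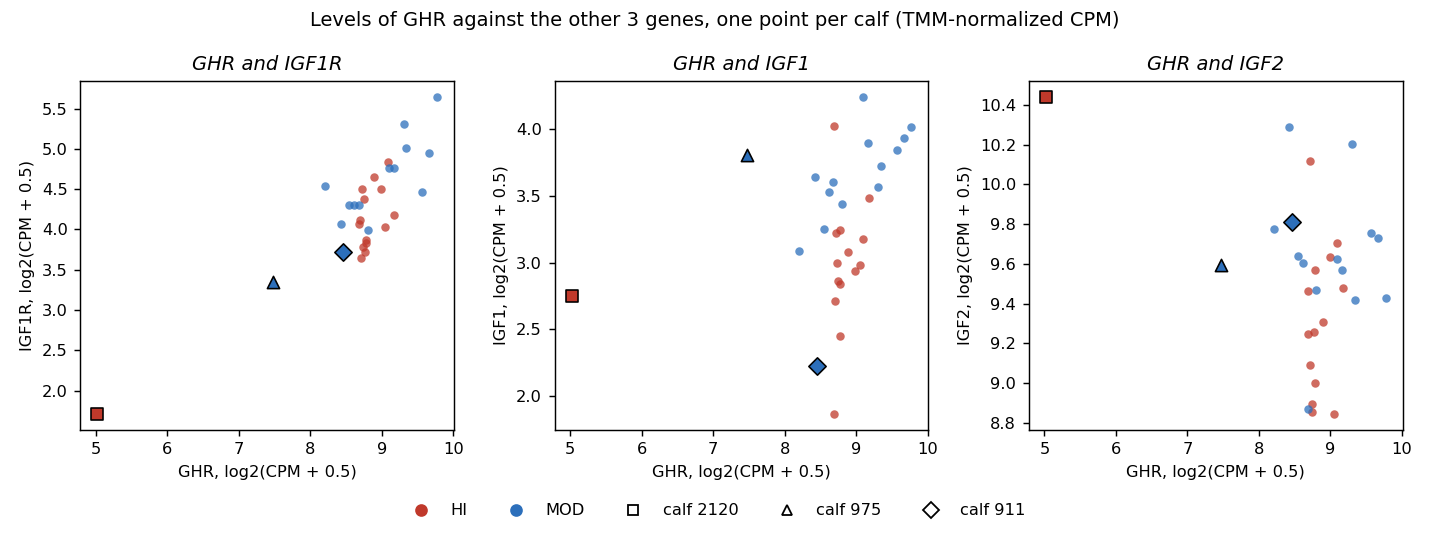
Each point is 1 calf, with log2(CPM + 0.5) of GHR on the x axis and of IGF1R, IGF1 or IGF2 on the y axis. MOD calves lie along a line for GHR and IGF1R (r = 0.83), HI calves other than 2120 stack within a narrow range of GHR, and calf 2120 lies alone at the left of each panel.

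No correlation of IGF2 with the other 3 genes had an adjusted p-value under 0.05. In MOD calves its r was -0.05 with GHR (rho -0.28), -0.17 with IGF1 (rho -0.30) and 0.0023 with IGF1R (rho -0.15), and the adjusted p-values of r were 0.99, 0.68 and 0.99. In HI calves its r was -0.60 with GHR (rho -0.05, permutation p = 0.047 and 0.85, adjusted p = 0.19 and 0.85), 0.03 with IGF1 (rho 0.19, adjusted p = 0.99 for r) and -0.35 with IGF1R (rho 0.26, adjusted p = 0.39 for r). The negative values in HI calves rested on calf 2120, without which r was 0.14 with GHR and 0.52 with IGF1R (n = 14). The latter had a rho of 0.55, and neither passed the adjustment (permutation p = 0.059 for r and 0.046 for rho, adjusted p = 0.26 and 0.16).

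IGF1 and IGF1R gave r = 0.46 in MOD (rho 0.51, permutation p = 0.086 and 0.054, adjusted p = 0.25 and 0.16) and r = 0.24 in HI calves (rho 0.52, permutation p = 0.31 and 0.051, adjusted p = 0.53 and 0.16). Whether this pair passed depended on the scaling. With library size alone rho in MOD calves was 0.66 (permutation p = 0.00845, adjusted p = 0.034), and r in HI calves without calves 2528 and 3148 was 0.73 (n = 13, permutation p = 0.0022, adjusted p = 0.0087), while r in all 15 calves of a diet did not pass (0.58 in MOD and 0.45 in HI calves, adjusted p = 0.085 and 0.23).

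Whether 2 genes differed between the diets to unequal degrees was tested on their ratio within each calf, which does not depend on the scaling of the library except through the pseudocount. With all 30 calves none of the 6 ratios passed the test, and the lowest adjusted p-value was 0.48 (two-sided permutation test of 100000 resamples). The log2 ratio of GHR over IGF1 was 5.61 ± 1.03 for HI and 5.29 ± 0.60 for MOD calves (SD, n = 15 each), a difference of 0.33 (standard error 0.31, adjusted p = 0.65). Without calves 2120, 975 and 911 it was 5.85 ± 0.48 (SD, n = 14) for HI and 5.34 ± 0.35 (SD, n = 13) for MOD calves, which differed by 0.51 (standard error 0.16, permutation p = 0.0037, adjusted p = 0.022). In those 27 calves IGF1 was thus lower in HI calves by more than GHR was. The ratio of GHR over IGF1R differed by 0.32 (standard error 0.13, permutation p = 0.023, adjusted p = 0.069) in the same calves, and the ratio of IGF1 over IGF2 by -0.36 (standard error 0.21, permutation p = 0.092, adjusted p = 0.18).

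The genes whose pattern was most like that of each of the 4 were sought over the other 12737 genes, by Pearson's r across 30 calves after the mean of each diet was subtracted. These values are a description, and the calves share the 3 libraries that stand apart. For GHR, 353 genes had r above 0.9 and 1562 had r above 0.8. The closest was ENSBTAG00000024595 (r = 0.97), IGF1R ranked 795th with r = 0.87, and IGF1 ranked 5094th with r = 0.27. For IGF1R, 16 genes had r above 0.9 and 854 had r above 0.8. The closest was ENSBTAG00000009019 (r = 0.94), and GHR ranked 161st. IGF1 and IGF2 had no gene above 0.8. The closest to IGF1 was ENSBTAG00000000548 (r = 0.67) and the closest to IGF2 was ENSBTAG00000010447 (r = 0.72).

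Over the 27 other calves the number of genes with r above 0.9 fell to 0 for GHR, with 41 above 0.8, and to 0 for IGF1R, with 6 above 0.8. ENSBTAG00000009019, the closest to IGF1R over 30 calves, was then second (r = 0.84), and the genes named for GHR, IGF1 and IGF2 were no longer among the 3 closest. GHR and IGF1R then had r = 0.64 with each other, GHR ranking 242nd for IGF1R and IGF1R ranking 577th for GHR. IGF1 had r = 0.44 with GHR and 0.34 with IGF1R. It ranked 2039th for GHR, while GHR ranked 395th for IGF1.

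Each of the 4 genes overlaps at least 1 other gene in the RefSeq annotation of ARS-UCD2.0, a later assembly than the UMD3.1 build of these data. GHR and IGF1 each overlap 1 long non-coding RNA gene, IGF2 overlaps the microRNA gene MIR483 and lies next to INS, and IGF1R overlaps 3 genes, of which PGPEP1L codes for protein. The libraries were stranded, but the strand column of the counts is not given in the sources used here, and the part of reads shared with these genes was not tested.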

How the data were processed

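Total RNA of visceral adipose tissue from 30 calves was sequenced as stranded mRNA libraries. Per the paper and the labels, reads were trimmed with Cutadapt, aligned to UMD3.1 with STAR and counted per gene. The signal deposited by the authors is a read count scaled to 1000000 reads of effective library size, which is the library total times its edgeR TMM factor. Columns were assigned to calves through the sample titles. Whole reads were recovered from the value of 1 read in each library, and 100% of values above 0 came out whole within 0.01 of a read.

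As the values are normalized, limma 3.58.1 (R 4.3.3) was fitted to log2(value + 0.5) of 12738 genes with a variance trend and Benjamini-Hochberg adjustment over all of them. Genes had a value above 1 in at least 15 libraries. On this scale fold changes of low genes are understated. The thresholds were an adjusted p-value of 0.05 and a fold change of 1.5. The fit was tested on simulated counts of 12738 genes, of which 200 were changed 2-fold. Of these, 168 were called in the right direction, and 13 unchanged genes were called. No libraries that stand apart were built into the simulation. The exact and quasi-likelihood tests of edgeR 4.0.16, DESeq2 1.42.0 and limma-voom were run on recovered reads. Correlations and ratios used two-sided permutation tests of 100000 resamples.

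The 4 genes, the tests, the 3 calves left out and the gene lists were chosen with earlier results of these data known. Lists of pathway and marker genes by symbol were not analysed, because 0 rows of the RefSeq table used here carry an Ensembl identifier. Of the 3 genes most like each member, the first is named. The blocking factors of the feeding trial are not in the per-calf labels used here, so no blocked fit was made. No sequences of these genes were used here.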

Additional observations from a re-analysis of the deposited data

How the results depend on the processing

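The direction of the 4 diet differences held in the 16 other settings and in the 30 fits that left out 1 calf, and IGF1 had an adjusted p-value under 0.05 in every one of them (log2 fold change -0.85 to -0.53). IGF2 passed with library size alone (-0.45), also without calf 2120 (-0.49) or without calves 2120, 975 and 911 (-0.50), fits in which 20.9%, 23.7% and 27.8% of all genes passed in this direction. IGF1R passed with limma-voom (-0.52), and without the 3 calves in limma (-0.50), with library size alone (-0.66), the exact test (-0.55) and the quasi-likelihood test (-0.55). The number of genes of the 4 called with adjusted p and fold change was 1 with all calves, 0 with a pseudocount of 1, 2 with library size alone without the 3 calves (5.34% of all genes), and 0 to 1 with each calf left out. With adjusted p alone it was 1, and it was 2 with library size alone (also without calf 2120), with limma-voom (14.6% of all genes) and without the 3 calves in limma (10.6%), the exact test (9.87%) and the quasi-likelihood test (12.5%), and 3 with library size alone without the 3 calves. Fits without calf 2120 or the 3 calves under another scaling or test, and the comparison of spread, were added after seeing the data.

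In HI calves r of GHR and IGF1R was 0.45 without calf 2120 and 0.54 without the 2 farthest calves, r of GHR and IGF2 turned to 0.14 and 0.089, and r of IGF2 and IGF1R turned to 0.52 and 0.46. In MOD calves r of GHR and IGF1R was 0.69 without the 2 farthest calves, and r of GHR and IGF1 was 0.73 without calves 975 and 911. With library size alone r in MOD calves turned to 0.23 for GHR and IGF2 and to 0.15 for IGF1 and IGF2, and calls were gained for GHR and IGF1 (rho 0.71) and for IGF1 and IGF1R (rho 0.66), both in MOD calves, and for GHR and IGF1R in HI calves (rho 0.63). Under this scaling, without the 2 farthest calves, r passed for GHR and IGF1R in both diets (0.69 in HI and 0.79 in MOD calves), GHR and IGF1 in MOD calves (0.73) and IGF1 and IGF1R in HI calves (0.73). The cause was not tested. The log2 ratio of GHR over IGF1 differed by 0.56 without calf 2120 and 0.51 without the 3 calves, and that of GHR over IGF2 turned to 0.30 and 0.15. The log2 variance ratio with all 30 calves was 1.36 for GHR, -0.0011 for IGF1 and 0.54 for IGF1R, and with library size alone in 27 calves -0.057 for IGF2. The correlations and ratios that turned were not past the threshold of an adjusted p-value of 0.05 with all calves.

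The alternatives for calls among pathway genes were not run, because those genes were not matched by name. The depth limits IGF1 and IGF1R most, with lowest counts of 48 and 36 reads.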
